A study of Mus musculus with 6 samples.

Results

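The synaptic adhesion molecules described here are 43 mouse genes of 10 families: neurexins such as Nrxn2 and Nrxn3, the neuroligins Nlgn1 to Nlgn3, Lrrtm1 to Lrrtm4, Slitrk1 to Slitrk6, the contactins Cntn1 to Cntn6, the contactin-associated Cntnap genes, Lrfn1 to Lrfn5, Cadm1 to Cadm4, Il1rapl1 and Il1rapl2, and the latrophilins Adgrl1 to Adgrl3. These genes were chosen by symbol, with earlier results of these data known. They are 43 of the 35415 genes counted in the lateral septum, and all 43 passed the filter on low counts that left 17255 genes to test. RNA-seq compared the lateral septum of wild-type female C57BL/6 mice that ate olanzapine, an antipsychotic drug, at 50 mg per kg of feed for 12 weeks with that of mice of the same strain and sex on control feed. The mice were about 8 weeks old when obtained and had 1 week to acclimate. Each library was made from tissue pooled from 3 mice, with 3 control pools and 3 olanzapine pools, so n = 3 pools per group throughout and values of single animals cannot be recovered.

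Synaptic adhesion molecules sit in the membranes on both sides of the synaptic cleft and hold them together while setting which receptors and channels gather there. Neurexins on the axon bind neuroligins and Lrrtm proteins on the receiving neuron, whereas Slitrk, Il1rapl and several Lrfn proteins bind receptor tyrosine phosphatases of the axon. Many of these genes are among the longest in the genome, and most neurons of the lateral septum are GABAergic.

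Whole libraries differed before any adhesion gene was considered. The libraries held between 38208153 and 39868872 counted reads, and the first principal component, with 36.8% of the variance, separated the groups. All 9 lateral septum markers were detected in the pools, as were all 8 markers of cortical glutamatergic neurons, whose summed level was 3139 CPM (counted reads scaled to one library size) in olanzapine pool 1 against 1535 to 1921 CPM in the other 5 pools. Summed choroid plexus markers ran from 69.0 to 7433 CPM over the 6 pools without following the groups. Hepatocyte markers summed to 10.5 to 18.3 CPM in the controls, against 208 to 272 CPM under olanzapine, and 8 nuclear-retained long noncoding RNAs to 2291 to 2793 CPM and 5310 to 6226 CPM. The part of these differences in the results below was not tested.

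The level of the adhesion genes was compared per length of transcript, as FPKM (fragments per kilobase of transcript, scaled by library size). The mean over the 6 pools ran from 0.566 FPKM for Cntn5 to 109 FPKM for Cadm4, with a median of 6.82 FPKM. Cadm4, an immunoglobulin adhesion molecule that also joins axons to myelinating glia, stood first with 106 ± 5.30 FPKM in the control and 113 ± 13.5 FPKM in the olanzapine pools (mean ± SD, n = 3). Nrxn2 followed with a mean of 60.9 FPKM, and Cadm3, Nlgn2 and Adgrl1 came next at 53.8, 48.7 and 43.8 FPKM. Within each of the 6 pools Nrxn2 stood above Cadm3 and Cadm3 above Nlgn2. At the low end, Cntn5, Il1rapl2, Il1rapl1 and Cntnap5c each averaged under 1 FPKM, and the lowest count of any member in any pool was 102 reads. These ranks depend on the length behind the FPKM, which differed by over 1.5 times from the exon length in GENCODE for 14 of the 43 genes. On the GENCODE length, a choice made after seeing the data, Cadm4 stayed first at 109 FPKM, Nrxn2 stood at 29.4 FPKM below Adgrl1 at 50.7 FPKM, Cntn5 at 2.26 FPKM, and Lrrtm1 at 18.9 FPKM in place of 1.93 FPKM. The median over the members was then 7.81 FPKM.

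**Figure D1:**
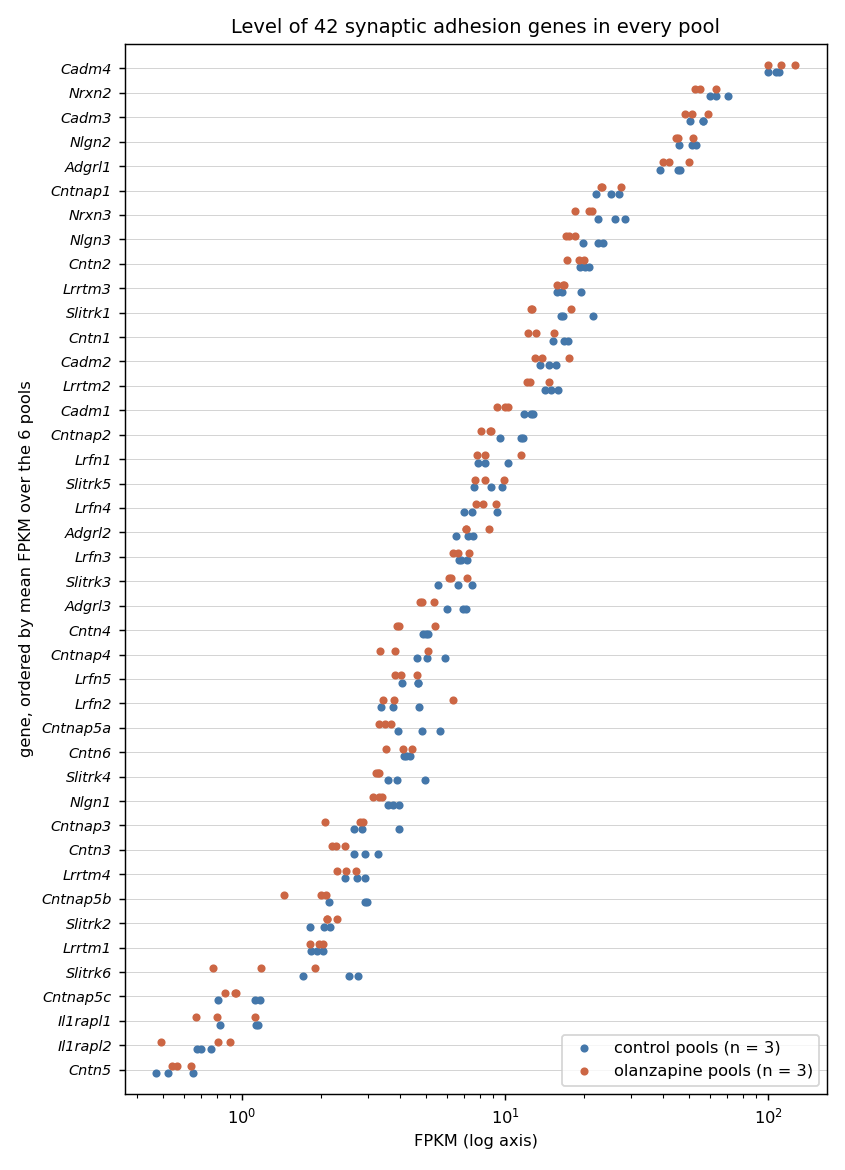
FPKM of 42 of the synaptic adhesion genes (rows, ordered by mean) on a log axis, with 1 point per pool, blue for the 3 control and orange for the 3 olanzapine pools. The levels span 0.566 FPKM for Cntn5 to 109 FPKM for Cadm4, and for most genes the 2 colours overlap.

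The question put to these data was which genes differ in the lateral septum after 12 weeks of olanzapine. By the quasi-likelihood test of edgeR, with p-values adjusted over all genes tested (Benjamini-Hochberg), 0 of the 43 members passed an adjusted p of 0.05, where 2.32% of all tested genes did (401 genes). The lowest adjusted p of a member by edgeR was 0.0628, for Adgrl3. At an unadjusted p under 0.05, 12 members (27.9%) were lower in the olanzapine pools and 0 were higher, against 8.40% of all tested genes lower and 9.19% higher. In 10 members (23.3%) every olanzapine pool lay below every control pool, against 11.0% of all tested genes, and in 0 members above. DESeq2, run as an alternative on the same counts, passed 8 members (18.6%), all lower, against 2.47% of genes called lower: Adgrl3, Cadm1, Cntnap2, Cntnap5b, Nlgn3, Cntnap5a, Slitrk6 and Nrxn3. Of the 43 log2 fold changes, olanzapine over control, 35 (81.4%) were negative, compared with 49.3% of all tested genes. Their median was -0.15 where that of all tested genes was 0.0039, and they ran from -0.89 for Slitrk6 to 0.18 for Lrfn2.

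Each pool was left out in turn. Without control pool 1, control pool 2, olanzapine pool 2 or olanzapine pool 3, edgeR called 0 members, with 9, 11, 9 and 10 lower at an unadjusted p under 0.05, where 13.4%, 13.2%, 16.2% and 15.7% of all tested genes were at that p in either direction. The other 2 pools are those whose median over the members lay nearest the other group, so that leaving them out widens the difference on that measure. Without olanzapine pool 1, edgeR with Benjamini-Hochberg adjustment called 4 members lower (9.30%, against 1.11% of all tested genes), among them Adgrl3, Cntn1 and Cntn4, and 21 members (all lower) had an unadjusted p under 0.05, where 10.1% of all tested genes were lower at that p. Without control pool 3, edgeR called 1 member lower (2.33%), Cntnap2, against 0.226% of all tested genes. In that fit 11 members were lower at an unadjusted p under 0.05, in place of 12 with all pools. There 15.2% of all tested genes were at that p in either direction. Since the tissue was sequenced in bulk, fewer cells that make these transcripts and less transcript per cell cannot be told apart.

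**Figure D2:**
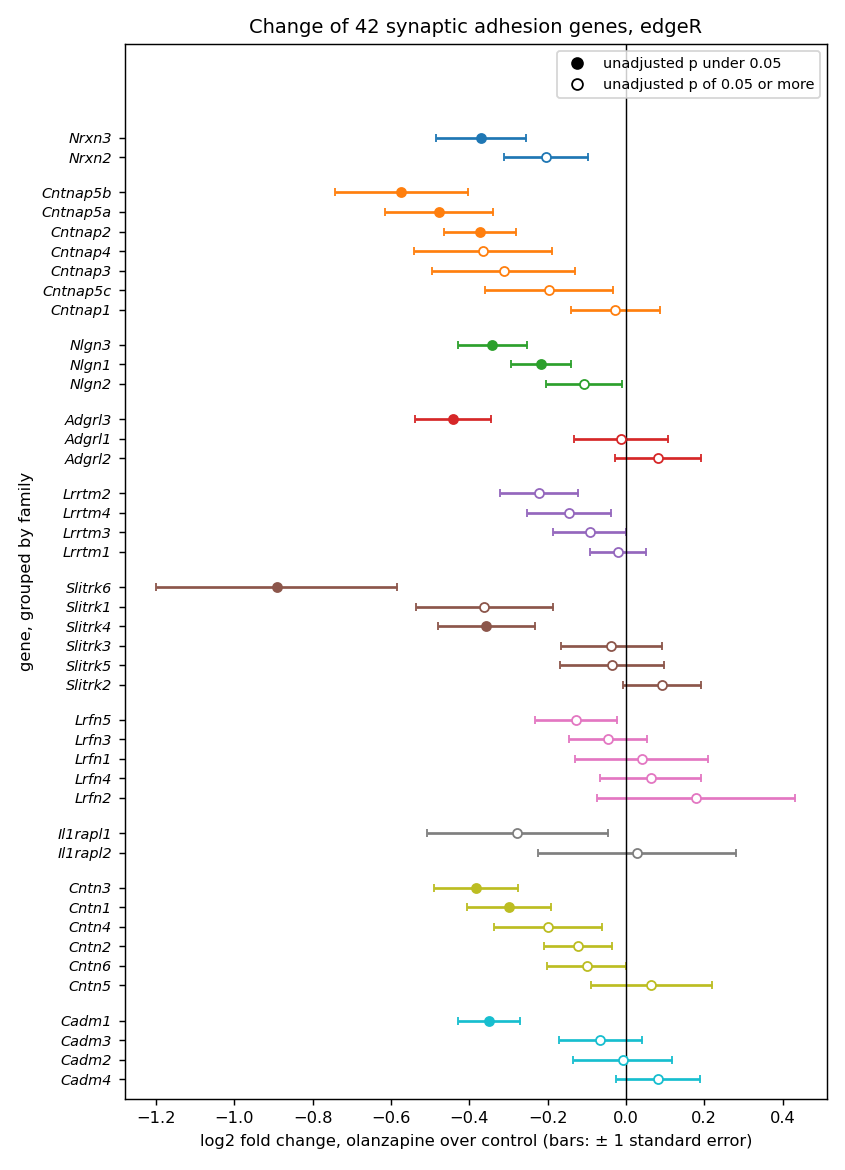
Log2 fold change, olanzapine over control, of 42 members in the edgeR fit, grouped by family, with bars of 1 standard error; filled points have an unadjusted p under 0.05. Points lie left of 0 for 34 of 42 genes, every Cntnap, Nlgn and Lrrtm gene among them, while the Lrfn genes lie on both sides.

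The neurexins, presynaptic organisers that are made from an upstream and an internal promoter and bind many of the postsynaptic partners described here, are given by Nrxn3 and Nrxn2. Values by pool are listed in the order of pools 1 to 3 of each group. Nrxn3 (chr12:88722701-90334935, plus strand, GRCm38.p6) had 289, 259.9 and 223 CPM under control feed, against 215, 176 and 206 CPM under olanzapine. The highest olanzapine pool lay just under the lowest control pool, and the log2 fold change by edgeR was -0.37 (SE 0.11, adjusted p = 0.154). Nrxn2, the member with the second highest deposited FPKM, had 480.4, 424 and 402 CPM under control feed, against 427, 340.0 and 366 CPM under olanzapine. The groups of Nrxn2 overlapped through olanzapine pool 1, with a log2 fold change by edgeR of -0.20 (SE 0.11, adjusted p = 0.370).

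The Cntnap genes encode large neurexin-like membrane proteins, and their median log2 fold change was -0.37, with 7 of 7 genes negative. Cntnap2, whose protein gathers potassium channels next to the nodes of myelinated axons and is also found at synapses (chr6:45060061-47301393, plus strand), is the longest member at 2241 kb. It had 139, 139 and 113 CPM under control feed, against 97.2, 101 and 103 CPM under olanzapine, so that the olanzapine pools lay within 6.10 CPM of each other, below all controls. Its log2 fold change by edgeR was -0.37 (SE 0.091, adjusted p = 0.0865). Cntnap5a (chr1:115684737-116587323, plus strand) had 63.9, 53.4 and 43.2 CPM under control feed, against 41.4, 35.4 and 38.5 CPM under olanzapine, with a log2 fold change by edgeR of -0.48 (SE 0.14, adjusted p = 0.135). Cntnap5b (chr1:99772246-100490599, plus strand), its relative on the same chromosome, had 31.2, 31.3 and 22.4 CPM under control feed, against 15.3, 20.1 and 21.6 CPM under olanzapine, with a log2 fold change by edgeR of -0.57 (SE 0.17, adjusted p = 0.140). In both genes the groups did not overlap, but control pool 3 was close to the highest olanzapine pool. Cntnap5c, on chromosome 17, had a log2 fold change of -0.20, and Cntnap4 and Cntnap3 had -0.37 and -0.31, all 3 with overlapping groups. Cntnap1, which builds the junction between axon and myelin beside the node and has the highest FPKM of the family, had 195, 179 and 156 CPM under control feed, against 198, 159 and 163 CPM under olanzapine. The groups overlapped, and the log2 fold change by edgeR was -0.027 (SE 0.11, adjusted p = 0.927).

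Among the postsynaptic neurexin partners, all 3 neuroligins and all 4 Lrrtm genes had negative log2 fold changes, with medians of -0.22 and -0.12. Nlgn3, found at excitatory and inhibitory synapses (chrX:101299179-101321350, plus strand), had 93.3, 88.4 and 77.0 CPM under control feed, against 72.4, 65.5 and 66.3 CPM under olanzapine. The groups were apart by 4.59 CPM, and the log2 fold change by edgeR was -0.34 (SE 0.088, adjusted p = 0.102). Its count carries a limit, since 41.2% of its annotated exon bases are shared with the gene Gm21986 on the same strand. Nlgn1, the neuroligin of excitatory synapses, ranged over 68.6 to 76.9 CPM in the control and 58.1 to 64.9 CPM in the olanzapine pools without overlap, and its log2 fold change by edgeR was -0.22 (SE 0.076, adjusted p = 0.193). Nlgn2, the neuroligin of inhibitory synapses and the most abundant of the family, had 311, 297 and 263 CPM under control feed, against 301, 249 and 259 CPM under olanzapine. Its groups overlapped, and the log2 fold change by edgeR was -0.11 (SE 0.10, adjusted p = 0.613). Of the leucine-rich Lrrtm genes, which organise excitatory synapses, Lrrtm3 had the highest level per length in the deposited FPKM and held 64.5, 75.0 and 60.6 CPM under control feed, against 65.4, 58.5 and 63.7 CPM under olanzapine. No separation of the groups was seen in Lrrtm3, with a log2 fold change by edgeR of -0.093 (SE 0.094, adjusted p = 0.659). Lrrtm2 had -0.22, Lrrtm4 -0.15 and Lrrtm1 -0.021 on the log2 fold change scale, and Lrrtm1, Lrrtm2 and Lrrtm3 each lie inside a longer catenin gene. For Lrrtm4, 25.1% of the exon bases are also covered by an antisense gene, and whether reads were counted by strand is not given in the sources used here.

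The latrophilins, adhesion G protein-coupled receptors that bind teneurins and Flrt proteins, had unlike values. Adgrl3 (chr5:81019085-81827825, plus strand) had 157, 151 and 131 CPM under control feed, against 119, 99.9 and 105 CPM under olanzapine. Each olanzapine pool was below each control pool, by 12.3 CPM at the nearest, and the log2 fold change by edgeR was -0.44 (SE 0.10, adjusted p = 0.0628), the smallest p of any member. Its mean was 147 ± 13.6 CPM in the control and 108 ± 9.89 CPM in the olanzapine pools (mean ± SD, n = 3). Adgrl1, which has the highest FPKM of the family, had 463, 464 and 387 CPM under control feed, against 502, 384 and 416 CPM under olanzapine. Here the highest pool of all was olanzapine pool 1 and the groups covered each other, with a log2 fold change by edgeR of -0.013 (SE 0.12, adjusted p = 0.969). Adgrl2 had a log2 fold change of 0.082. The count of Adgrl1 carries a limit, since 12.9% of its exon bases are also covered by the gene Gm10644 on the opposite strand and the strand setting of the counting is not given in the sources used here. The difference in change between Adgrl3 and the other latrophilins was not tested.

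The Slitrk, Il1rapl and Lrfn families, whose proteins reach across to receptor phosphatases of the axon or gather glutamate receptors, held genes with low and genes with near-zero values. Slitrk6 had the lowest log2 fold change of all members by edgeR, -0.89 (SE 0.31, adjusted p = 0.186), from 9.65, 14.2 and 15.3 CPM under control feed, against 4.35, 10.2 and 6.54 CPM under olanzapine. These are low counts, and olanzapine pool 2 lay above control pool 1, so its groups overlapped. Slitrk4 did not overlap, with 32.4 to 45.7 CPM for the controls, against 28.9 to 30.02 CPM under olanzapine, and its log2 fold change by edgeR was -0.36 (SE 0.13, adjusted p = 0.193). Slitrk1, the Slitrk gene with the highest level per length, had 93.5, 71.1 and 69.4 CPM under control feed, against 76.8, 51.6 and 53.7 CPM under olanzapine. Olanzapine pool 1 exceeded 2 of the 3 control pools, and the log2 fold change of Slitrk1 by edgeR was -0.36 (SE 0.17, adjusted p = 0.333). Slitrk2, Slitrk3 and Slitrk5 had log2 fold changes of 0.092, -0.037 and -0.036. Il1rapl1, a receptor-like protein of the interleukin-1 receptor family that acts at excitatory synapses, had 10.9, 10.6 and 7.74 CPM under control feed, against 10.6, 6.07 and 7.52 CPM under olanzapine. Its pools overlapped at this low level, with a log2 fold change by edgeR of -0.28 (SE 0.23, adjusted p = 0.578), and Il1rapl2 had 0.027. Of the Lrfn genes, 3 of 5 had positive log2 fold changes, and the median was 0.040, although that median was negative in 4 of 18 alternative analyses. Lrfn1 had 55.7, 44.9 and 42.0 CPM under control feed, against 62.1, 43.2 and 41.5 CPM under olanzapine. Olanzapine pool 1 was the highest of its 6 pools, and the log2 fold change by edgeR was 0.040 (SE 0.17, adjusted p = 0.929). Lrfn2, which binds NMDA receptors, was also highest in olanzapine pool 1, at 25.9 CPM against 13.3 to 19.3 CPM in the other 5 pools.

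The contactins, immunoglobulin proteins tied to the membrane by a lipid anchor, had negative log2 fold changes in 5 of 6 genes, with a median of -0.16. Cntn3 (chr6:102163304-102564614, minus strand) had 24.7, 27.1 and 22.0 CPM under control feed, against 20.5, 18.1 and 17.99 CPM under olanzapine. The groups did not overlap, and the log2 fold change by edgeR was -0.38 (SE 0.11, adjusted p = 0.123). Cntn1, the partner of the Cntnap1 protein at axon and myelin junctions, ranged over 366 to 421 CPM in the control and 291 to 371 CPM in the olanzapine pools, overlapping through olanzapine pool 1. Its log2 fold change by edgeR was -0.30 (SE 0.11, adjusted p = 0.202), and -0.42 (SE 0.082, adjusted p = 0.0368) without that pool. Cntn2, the partner of the Cntnap2 protein and the contactin with the highest deposited FPKM, had 206, 195 and 187 CPM under control feed, against 195, 161 and 185 CPM under olanzapine. The groups of Cntn2 overlapped, with a log2 fold change by edgeR of -0.12 (SE 0.087, adjusted p = 0.514). Cntn5, at 0.065, was the contactin with a positive log2 fold change.

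The Cadm genes encode immunoglobulin molecules that bind each other across the synapse, and their median log2 fold change was -0.037. Cadm1 (chr9:47530170-47862280, plus strand) had 322, 311 and 290.0 CPM under control feed, against 250.3, 221 and 253 CPM under olanzapine. A gap of 37.0 CPM separated the lowest control from the highest olanzapine pool, and the log2 fold change by edgeR was -0.35 (SE 0.080, adjusted p = 0.0702). Cadm4 had 236, 216 and 237 CPM under control feed, against 278, 209 and 242 CPM under olanzapine. Its highest and its lowest pool were both olanzapine pools, and the log2 fold change by edgeR was 0.081 (SE 0.11, adjusted p = 0.748). Cadm2 and Cadm3 had log2 fold changes of -0.0086 and -0.065. Over 18 alternative analyses, the medians of the Cntnap, Nlgn, Slitrk, Cntn and Lrrtm families were negative in all 18. Those of Adgrl, Cadm and Il1rapl were negative in 10, 14 and 16. The Cadm median ran from -0.17 to 0.035 over these alternatives and the Cntn median from -0.29 to -0.062, both lowest without olanzapine pool 1.

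**Figure D3:**
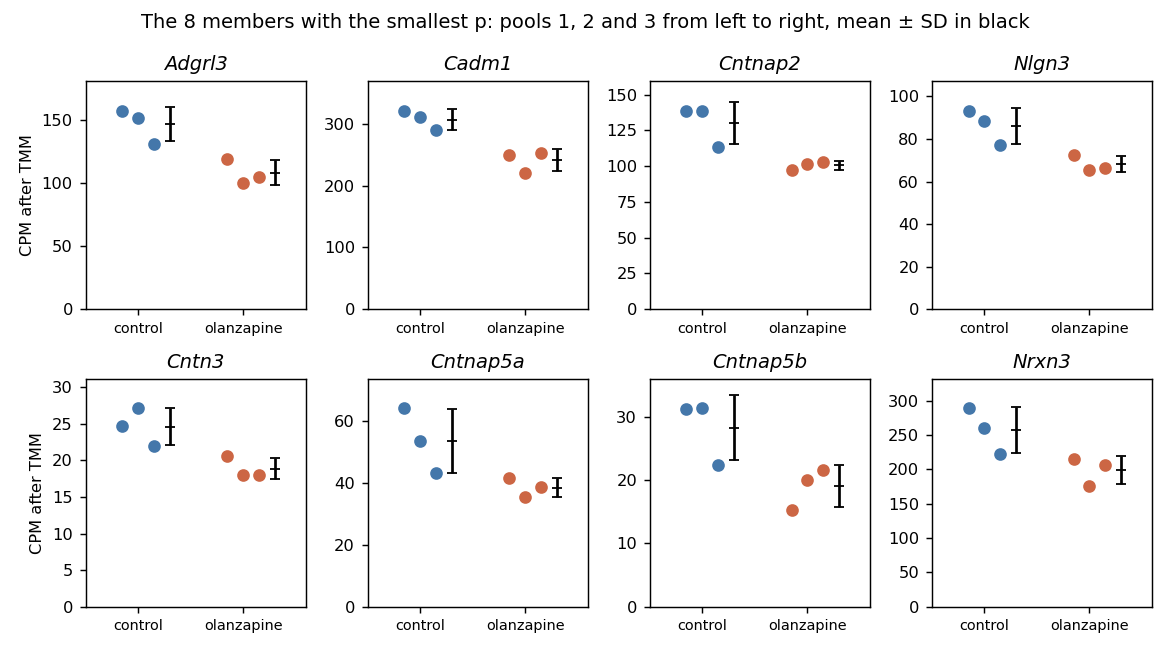
CPM in each of the 6 pools for the 8 members with the smallest p, axes from 0, with the mean and SD of each group (n = 3 pools) in black. In all 8 genes the highest olanzapine pool lies below the lowest control pool, and control pool 3 is the lowest control in each.

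The genes were grouped by span, the distance from the first to the last base in RefSeq, because long genes are common among them. Their median span was 166 kb, against 22.2 kb over 17071 tested genes with a known span. Of the 43, 25 spanned at least 100 kb, as did 13.8% of all genes, and 19 spanned over 300 kb, as did 3.22%. The remaining 18 were shorter than 100 kb, among them Slitrk, Lrfn and neuroligin genes with compact loci, so the set is not uniformly long. The 19 genes over 300 kb had a median log2 fold change of -0.25, with 17 negative and 8 (42.1%) at an unadjusted p under 0.05. The 530 other tested genes over 300 kb had a median of -0.15, with 29.6% lower at that p. Without olanzapine pool 1 these medians were -0.38 for the members and -0.23 for the other genes, and without olanzapine pool 2 they were -0.16 and -0.13. Of all 43 members, 40 and 29 were negative in those fits. The 18 members under 100 kb had a median of -0.042, with 14 negative and 3 lower at an unadjusted p under 0.05. The 14705 other tested genes under 100 kb had a median of 0.018, with 46.5% negative and 6.51% lower at that p.

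The median log2 fold change over all tested genes was 0.055 under 10 kb, 0.028 from 10 to 30 kb, -0.030 from 30 to 100 kb, -0.10 from 100 to 300 kb and -0.16 over 300 kb. For the members in the same classes it was -0.13 (n = 6), -0.032 (n = 8), -0.043 (n = 4), -0.15 (n = 6) and -0.25 (n = 19). In each class the median of the members lay below that of all genes, and the members followed no even slope. Spearman's rho of log2 fold change with span was -0.25 over the 43 members and -0.19 over 17071 genes. Within members of at least 100 kb it was -0.18 (n = 25), and within shorter ones 0.23 (n = 18). These are descriptions across genes that share the same 6 libraries, and genes are not independent replicates. GC content of the exons went with the values too, with a rho of 0.43 over the members and 0.11 over 15995 genes, and GC content and span were themselves related among the members (rho of -0.37). When each library was corrected for its own curve on gene span, the members' median log2 fold change was -0.064, 8 were lower at an unadjusted p under 0.05 in place of 12, where 7.41% of all tested genes were in that fit, and 29 of 43 were negative, against 49.96% of all tested genes. Cntnap2 went from -0.37 to -0.11 and Adgrl3 from -0.44 to -0.24 with that correction (adjusted p = 0.562 and 0.101 by edgeR). In that corrected fit the members over 300 kb had a median of -0.048 and the other genes over 300 kb one of 0.021.

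**Figure D4:**
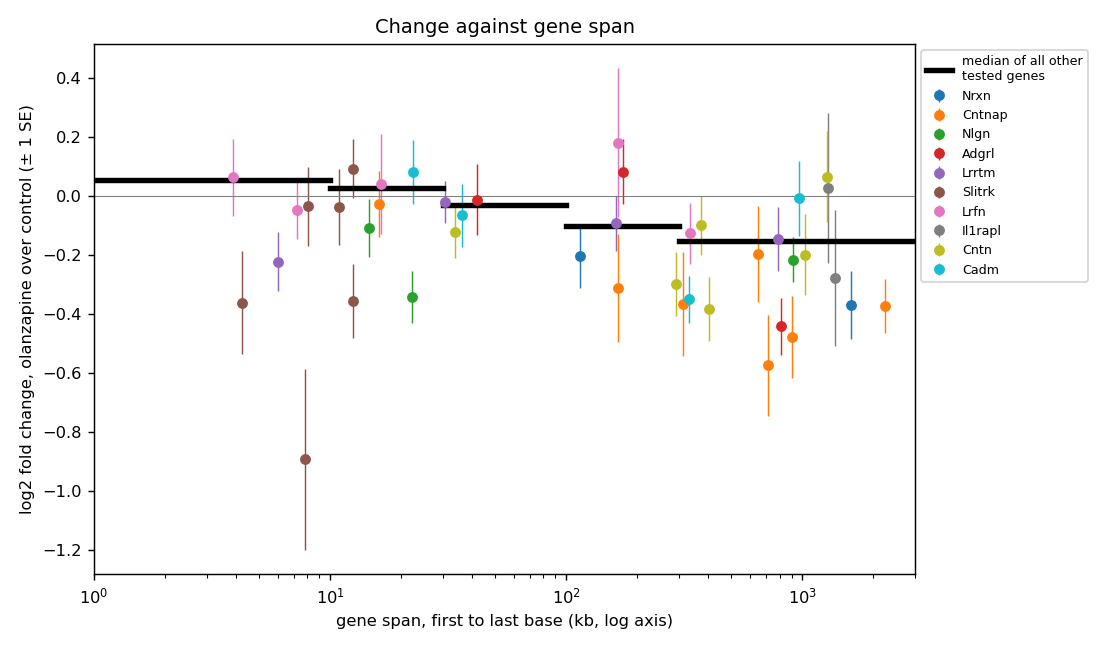
Log2 fold change (olanzapine over control, with bars of 1 SE) of 42 members against genomic span in kb on a log axis, coloured by family; black bars give the median of all other tested genes in 5 span classes. The bars step down from 0.055 to -0.15, and 16 of the 18 plotted members over 300 kb lie below 0, as do shorter genes such as Nlgn3 and Slitrk6.

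Pairs of genes show values that follow span and values that do not. Adgrl3 spans 809 kb and Adgrl1 41.9 kb, with log2 fold changes of -0.44 and -0.013. The third latrophilin, Adgrl2, lies between them in span at 174 kb but had 0.082, above both. Cntnap2 at 2241 kb and Cadm2 at 966 kb are both very long, yet their log2 fold changes were -0.37 and -0.0086. Conversely Nlgn3, at 22.2 kb, had -0.34, and Slitrk6, at 7.87 kb, had -0.89.

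The start regions of those 4 genes are shown because they pair a long with a short latrophilin and a long gene with a low value with one near 0. Each is the RefSeq window on GRCm38.p6 (the files' build is mm10, the same assembly) from 250 bases before the first listed start to 50 bases after it, on the strand of the gene, with matches to the GC box GGGCGG on either strand, and to the E-box CACGTG, in capitals. The windows are chr5:81020321-81020620, plus strand, for Adgrl3; chr8:83899848-83900147, plus strand, for Adgrl1; chr6:45059811-45060110, plus strand, for Cntnap2; and chr16:67620859-67621158, minus strand, for Cadm2.
Adgrl3: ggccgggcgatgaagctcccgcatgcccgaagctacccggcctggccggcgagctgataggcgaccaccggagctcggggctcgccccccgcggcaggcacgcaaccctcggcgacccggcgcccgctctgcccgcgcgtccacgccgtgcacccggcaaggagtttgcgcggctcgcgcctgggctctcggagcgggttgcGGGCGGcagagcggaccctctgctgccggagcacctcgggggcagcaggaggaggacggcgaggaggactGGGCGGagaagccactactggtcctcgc
Adgrl1: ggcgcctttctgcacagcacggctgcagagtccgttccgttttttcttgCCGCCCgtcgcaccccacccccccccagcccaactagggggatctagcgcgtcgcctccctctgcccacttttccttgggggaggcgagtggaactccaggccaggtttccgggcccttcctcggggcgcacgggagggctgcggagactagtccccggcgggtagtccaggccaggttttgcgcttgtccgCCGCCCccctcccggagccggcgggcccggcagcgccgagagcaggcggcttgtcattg
Cntnap2: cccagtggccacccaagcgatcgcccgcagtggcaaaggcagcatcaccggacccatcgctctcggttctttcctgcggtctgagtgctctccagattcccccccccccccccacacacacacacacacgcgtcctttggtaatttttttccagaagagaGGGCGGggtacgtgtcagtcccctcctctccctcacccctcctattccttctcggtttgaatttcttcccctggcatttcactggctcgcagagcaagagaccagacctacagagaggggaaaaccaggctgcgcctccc
Cadm2: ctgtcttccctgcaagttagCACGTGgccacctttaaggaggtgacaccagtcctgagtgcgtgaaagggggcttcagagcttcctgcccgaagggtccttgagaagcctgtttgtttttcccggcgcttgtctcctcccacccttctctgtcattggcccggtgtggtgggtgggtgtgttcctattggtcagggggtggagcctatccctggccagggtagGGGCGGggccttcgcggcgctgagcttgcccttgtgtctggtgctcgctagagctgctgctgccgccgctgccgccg

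All 4 windows hold a GC box, 2 in each latrophilin and 1 in each of the others. Adgrl3 and Adgrl1 have 75.3% and 70.0% GC and 40 and 28 CpG, Cntnap2 and Cadm2 59.7% and 62.7% GC and 14 and 15 CpG. The promoter table held 31 of the 43 members, with 43 start windows. The GC box was found in 39.5% of these, against 35.9% of 32544 windows of all genes, the TATA box TATAAA in 11.6% against 13.6%, CACGTG in 6.98% against 7.17%, and the cAMP response core TGACG in 23.3% against 20.9%, both strands searched. Median GC content was 58.0% in the member windows and 53.0% in all windows, and the median number of CpG was 12 and 7. A match describes letters and not a bound site.

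Pool by pool, the members did not split cleanly by diet. Each gene's log2 CPM was set against its mean over the 6 pools, and the median over the members was 0.19, 0.10 and -0.037 in control pools 1 to 3, against 0.080, -0.21 and -0.11 for olanzapine pools 1 to 3. Control pool 3 thus lay below olanzapine pool 1, so the groups overlapped on this measure. The 19 members over 300 kb gave 0.24, 0.19 and -0.016 for the controls, against -0.048, -0.25 and -0.13 under olanzapine, which did not overlap. All tested genes over 300 kb gave 0.14, 0.11 and -0.0080 for the controls, against -0.037, -0.16 and -0.087 under olanzapine, the same order of pools. Summed over the 43 members, the level was 5202, 4974 and 4559 CPM for the controls, against 4888, 4137 and 4285 CPM under olanzapine.

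**Figure D5:**
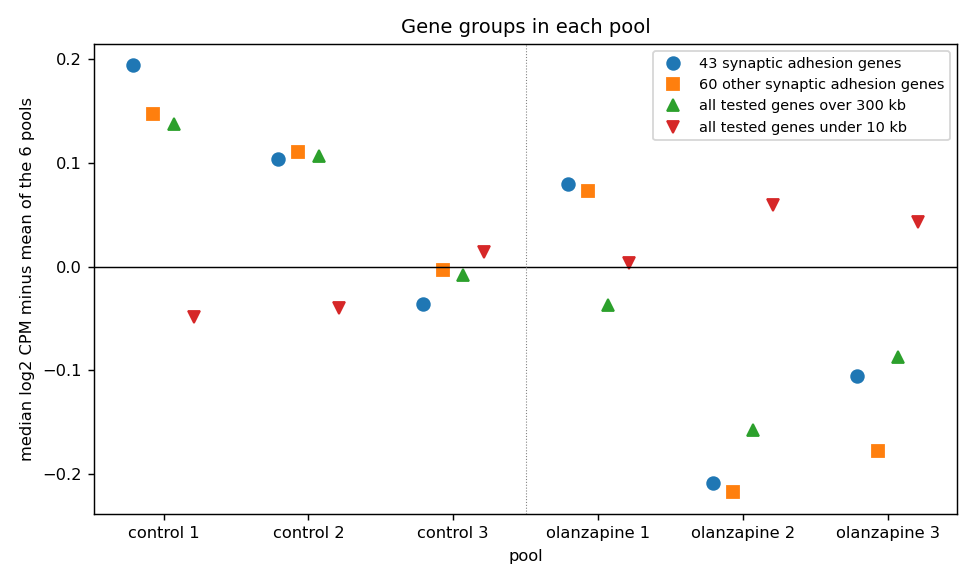
Median deviation of log2 CPM from the mean of the 6 pools (y axis) in each pool (x axis) for the 43 members, the 60 other synaptic adhesion genes, and all tested genes over 300 kb and under 10 kb. The members reach 0.19 in control pool 1 and -0.21 in olanzapine pool 2, with control pool 3 (-0.037) below olanzapine pool 1 (0.080).

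Cell type markers were read in the same fit. The 8 markers of neurons in general had a median log2 fold change of 0.028, with 0 at an unadjusted p under 0.05, and their summed level was 5300 to 6083 CPM in the control and 5492 to 7034 CPM in the olanzapine pools. The 9 lateral septum markers had a median of -0.25, 3 were lower at an unadjusted p under 0.05, and their sums were 2511 to 3094 CPM and 2096 to 2807 CPM. Of these, Trpc4 and Zic1 had log2 fold changes of -0.49 and -0.48, neither of which passed adjustment in edgeR, and the groups of Trpc4 overlapped. Sst and Nts had positive values, of 0.19 and 0.013. The 8 astrocyte markers had a median of -0.22 with 4 lower at an unadjusted p under 0.05, and summed to 5208 to 5654 CPM in the control and 4614 to 5103 CPM in the olanzapine pools without overlap. Of these the smallest p was that of Sox9, whose groups did not overlap, with a log2 fold change of -0.58 and adjusted p = 0.0609 by edgeR and 0.0016 by DESeq2. The astrocyte markers Aldh1l1 and Aldoc had positive values, of 0.099 and 0.057. By edgeR with Benjamini-Hochberg adjustment 0 genes of these 3 lists passed, and no listed gene was at 0. Oligodendrocyte markers had a median of 0.069 with 0 at an unadjusted p under 0.05. The 6 markers of oligodendrocyte precursors had a median of -0.045, and 2 were lower at that p without overlap between the groups: Pdgfra had a log2 fold change of -0.36 and Cspg4 one of -0.61, with adjusted p = 0.0525 and 0.0887 by edgeR and 0.0061 and 0.0075 by DESeq2. Among the precursor markers Olig1, Olig2 and Bmp4 had positive values, of 0.027, 0.033 and 0.13, and Gpr17 had -0.12 with overlapping groups. The 8 striatal markers had a median of 0.29, with 1 higher at an unadjusted p under 0.05, Rgs9. Its groups overlapped, with a log2 fold change of 0.76 and adjusted p = 0.150 by edgeR and 0.0081 by DESeq2. Whether a different make-up of the dissected tissue took part in the adhesion results was not tested.

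The wider set of synaptic adhesion genes was taken from a list of 60, all tested, that holds the receptor phosphatases, teneurins, Flrt and Unc5 genes, cadherins and secreted linkers which bind or accompany the members. By edgeR with Benjamini-Hochberg adjustment 4 of the 60 (6.67%) passed, all lower, against 2.32% of all tested genes, and the median log2 fold change was -0.13. At an unadjusted p under 0.05, 20 were lower and 1 was higher, against 8.40% and 9.19% of all tested genes. Tenm3, a teneurin that latrophilins bind, had 245, 233 and 204 CPM under control feed, against 113, 128 and 145 CPM under olanzapine. The groups of Tenm3 were apart by 58.5 CPM, and it fell with a log2 fold change by edgeR of -0.82 (SE 0.11, adjusted p = 0.0113). Tenm1, a teneurin on the X chromosome, fell too, with 103, 95.0 and 72.7 CPM under control feed, against 58.0, 45.8 and 55.2 CPM under olanzapine and a log2 fold change by edgeR of -0.77 (SE 0.14, adjusted p = 0.0371). Cdh2, the neural cadherin, and Dag1, the dystroglycan that binds neurexins, fell by edgeR with log2 fold changes of -0.53 (SE 0.087, adjusted p = 0.0233) and -0.31 (SE 0.063, adjusted p = 0.0469). Spearman's rho of log2 fold change with span was -0.48 over the 59 listed genes with a known span, as a description. These calls depended on the setting: of 18 alternatives, Tenm3 passed in 14, Cdh2 in 13, Tenm1 in 10 and Dag1 in 9. With the gene span offset Tenm3, Cdh2 and Tenm1 passed in edgeR and Dag1 did not (log2 fold change of -0.28, adjusted p = 0.0516), and with the replicate number as a block Cdh2 alone passed. Without olanzapine pool 1, 2 or 3 edgeR called 14, 2 and 1 of the 60, where 2.87%, 0.996% and 0.785% of all tested genes were called. Without control pool 3 it called 4, against 0.988% of all genes, and without control pool 1 or 2 it called 0 and 0, with 14 and 16 at an unadjusted p under 0.05, where 13.4% and 13.2% of all tested genes were at that p.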

How the data were processed

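Lateral septum libraries of 3 olanzapine and 3 control pools were grouped by their labels. The authors deposited raw counts per gene and FPKM, which they computed from the same counts. The submitters' processing notes name fastp, HISAT2, HTSeq and mm10. The annotation, the strand setting and the handling of reads that match several places are not given in the sources used here. The number of sample columns not used was 0.

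Counts were fitted with edgeR 4.0.16 in R 4.3.3 (TMM factors, group as the only term, quasi-likelihood F test, filterByExpr at a minimum count of 10 and total of 15), tested on simulated data first. P-values were adjusted by Benjamini-Hochberg over all 17255 genes, and SE was the log2 fold change divided by the square root of F. Both rest on the spread between pools, estimated with information shared across genes, and not on the spread between single animals. CPM values use TMM factors (log2 CPM with a prior count of 2), except that sums over lists use the library totals. The members and lists were chosen with earlier results of these data known. Pool values and full statistics were given for the 8 members with the smallest p and the member with the highest FPKM of each family; other members were named after their values were seen. Values of 1 member are not reported here; it is counted in the summaries. Of the 60 other genes the 4 with the smallest p were named.

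Alternatives were DESeq2 1.42.0, RLE or upper-quartile factors, other count filters, limma 3.58.1 on log2(FPKM + 1) or log2(FPKM + 0.1), offsets per library from a lowess curve (span 0.3) on gene span, exonic length or GC content, the replicate number as a block, and leaving out each pool. Spans came from RefSeq on GRCm38.p6, which matched 17071 tested genes, exon overlaps and GC content from GENCODE on GRCm38.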

Additional observations from a re-analysis of the deposited data

How the results depend on the processing

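The 8 members with the smallest p kept negative log2 fold changes under all 18 alternatives. For 7 of them the size moved most with the gene span offset, where Cntnap2 had -0.11 (adjusted p = 0.562 by edgeR), Nrxn3 -0.13, Cadm1 -0.20, Cntn3 -0.22, Adgrl3 -0.24, Cntnap5a -0.27 and Cntnap5b -0.37, all nearer 0 than without it. Nlgn3 had -0.36 there. Of the other 10 members given in full, Adgrl1 turned positive with limma (0.0060 with log2(FPKM + 1), with or without the filter, and 0.0061 with log2(FPKM + 0.1)), with the exonic length offset (0.050) and without 4 of the single pools (range over all 6, -0.13 to 0.067). Cntnap1 turned positive with the exonic length offset (0.013) and without 3 of the single pools (-0.13 to 0.048), and Lrrtm3 with the gene span offset (0.0097) and without control pool 2 (-0.15 to 0.0041 over the single pools). Lrfn1 turned negative with the GC offset (-0.040) and without control pool 3 or olanzapine pool 1 (-0.17 to 0.17 over the single pools), and Cadm4 without olanzapine pool 1 (-0.028 to 0.18). The rest stayed negative over the 18 alternatives. Slitrk1 ran from -0.57 to -0.21, Il1rapl1 from -0.52 to -0.058, and Nrxn2 from -0.30 to -0.13. Nlgn2 ran from -0.19 to -0.054 and Cntn2 from -0.18 to -0.047.

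The count over all genes was 401, and became 1099 with DESeq2, 240 with limma without a filter, 174 with a log2 fold change beyond 1 in size, and 131 to 508 without single pools. Members called went from 0 to 8 with DESeq2 and to 1 (2.33%) each with upper-quartile factors, without a count filter and with the exonic length offset (Adgrl3 in all 3), near the 2.55%, 1.76% and 2.65% of all genes called there (440, 459 and 457 genes), and 0 to 4 without single pools. Members at an unadjusted p under 0.05 ranged from 9 to 21 without single pools. Other synaptic adhesion genes called went from 4 to 15 with DESeq2, 2 and 1 with limma at log2(FPKM + 0.1) and at log2(FPKM + 1) without the filter, 0 with the fold limit, and 0 to 14 without single pools; Dag1 was lost with the gene span offset, without the count filter and with limma at log2(FPKM + 0.1). The gene span offset moved rho with span from -0.25 to 0.25 over the members and from -0.19 to -0.0023 over all genes, as it was built to remove that relation over all genes. For the rest the cause was not tested.

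With the replicate number as a block, 140 genes in all and 1 of the other adhesion genes (Cdh2) were called, and 0 members, with 17 members at an unadjusted p under 0.05 where 16.8% of all genes were at that p. The labels tie the numbers to no shared batch. Deviations of same-numbered pools correlated at -0.0026, 0.062 and -0.25, and those of differently numbered pools at -0.35 to 0.34. With 3 pools a group, these values cannot decide whether same-numbered pools were handled together. In the 3 pools a group, differences of -21.5% (Cadm1) and -26.3% (Adgrl3) did not pass adjustment in edgeR, while -19.6% (Dag1) did, and Adgrl3 passed under 5 of 18 alternatives.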
